A study of Mus musculus with 2 samples.

Results

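The 7 genes described here are the metallothioneins Mt1 and Mt2, the zinc sensor Mtf1, the zinc importers Slc39a4 and Slc39a5, the zinc exporter Slc30a1 and the transporter Slc30a10, taken by their symbols from the 55357 genes of the deposited tables. All 7 were listed and detected in both libraries. They were measured by droplet-based single-cell RNA sequencing of crypt-enriched small intestinal epithelium from Adipfl/fl mice, whose floxed adiponectin gene is intact, and from Adipfl/flpVilli-CreT mice, in which the same floxed alleles are combined with Cre recombinase under the villin promoter. Villin is made in epithelial cells of the gut, and the immune cells of the samples are not expected to recombine the alleles. Each genotype is 1 library made from pooled male mice, the controls being littermates, so no difference between the genotypes has a replicate check, no test between them was possible, and every interval below covers counting error only.

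Metallothioneins are small, cysteine-rich proteins that bind zinc and copper in the cytosol. Their genes are switched on by Mtf1, a transcription factor that senses free zinc and binds metal response elements in their promoters, and also by glucocorticoids and oxidants. In the intestine Slc39a4 (ZIP4) brings dietary zinc in across the apical membrane, Slc39a5 (ZIP5) takes up zinc from the blood side, and Slc30a1 (ZnT1), itself a target of Mtf1, moves zinc out of the cytosol. Slc30a10 is known chiefly as a manganese exporter.

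Mt1 and Mt2 are neighbours on mouse chromosome 8 and their products are alike, so their coding sequences are compared first. Which stretch of each transcript the reads covered was not examined. Mt2 lies at chr8:94172664-94173568 and Mt1 at chr8:94179082-94180327, both on the plus strand (GRCm38, GENCODE M21). Both have 61 codons before the stop. The coding sequences of the transcripts Mt1-201 and Mt2-201 are given from the start codon to the stop codon, with the bases at which they differ in capitals.
Mt1: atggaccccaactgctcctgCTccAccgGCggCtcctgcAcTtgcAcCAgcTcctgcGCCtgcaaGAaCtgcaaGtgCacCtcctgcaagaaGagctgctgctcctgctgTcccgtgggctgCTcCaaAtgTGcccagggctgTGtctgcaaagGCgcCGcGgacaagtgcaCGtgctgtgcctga
Mt2: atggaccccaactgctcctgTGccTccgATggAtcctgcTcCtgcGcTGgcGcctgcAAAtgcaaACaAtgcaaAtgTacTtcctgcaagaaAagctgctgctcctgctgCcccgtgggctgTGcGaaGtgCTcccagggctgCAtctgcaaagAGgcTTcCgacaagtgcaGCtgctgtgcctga
Of 186 bases, 38 differed (79.6% identical). The longest run shared by any transcripts of the pair was 20 bases, at the start codon, and no transcript of another gene in that annotation shared 40 bases with either. The assay counts molecules by unique molecular identifiers (UMIs) read at the 3′ end, so the number does not grow with transcript length. The table gives 1 number per gene, so a molecule of the native Mt1 gene cannot be told apart from any other transcript, a transgene's included, that ends in Mt1 sequence. The sequence of the Cre construct was not used here, and this was not tested.

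The letters TGCACNC and TGCGCNC, the core of the metal response element, were searched on both strands in windows of 300 bases, from 250 bases before to 50 after each annotated RefSeq start (GRCm38.p6). Of the 7 genes, 6 had a window. The matches of the metallothioneins are shown with 10 bases on each side and the matched letters in capitals, leaving out 1 match of Mt1 whose flanking bases run into those of its neighbours.
Mt1, chr8:94179056-94179082: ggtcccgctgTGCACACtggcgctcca
Mt1, chr8:94179099-94179125: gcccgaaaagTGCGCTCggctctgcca
Mt2, chr8:94172385-94172411: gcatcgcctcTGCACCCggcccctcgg
Mt2, chr8:94172480-94172506: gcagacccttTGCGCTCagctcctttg
Mt2, chr8:94172558-94172584: gggggagggcGTGTGCAggctctgtcc
Mt2, chr8:94172612-94172638: aattcgggtcGTGCGCAggcccagggg
Both metallothionein windows held several matches, 3 for Mt1 and 4 for Mt2, where 1.97% of all 32851 windows held at least 3 and 25.7% at least 1. Slc30a1 had 2, Slc30a10 had 3, of which 1 pair lies on both strands of overlapping letters, Slc39a5 had 1 over its 2 windows and Mtf1 had 0. The matches of Mt1 began at -23, 3 and 21 bases from the annotated start, and those of Mt2 at -223, -128, -50 and 5. Some thus lie after that start. A match is a description of the letters and not a measured site.

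The libraries held 42150623 UMIs in 9791 barcodes (Adipfl/fl) and 63370798 UMIs in 11838 barcodes (Adipfl/flpVilli-CreT), of which 3069 and 5555 passed the filter, a mitochondrial share below 25% and over 500 detected genes. The median depth of kept cells was 4838 and 4749 UMIs. The libraries shared 31 barcodes, 3 of them among kept cells. Cell classes were named from marker genes after clustering in which no zinc gene was used. Of the kept cells, 2437 and 4782 were epithelial, and these rest on 21869286 and 44625988 UMIs. A cluster of 69 and 157 cells could not be named and was left out. The targeted gene Adipoq had 1 UMI over all barcodes of the Adipfl/fl library and 0 in the Adipfl/flpVilli-CreT library, too few to check the labels. Cells in the stem-like class (28 and 87) also carried cycling, fibroblast and Paneth cell markers. The transit-amplifying (TA)-like class took in a cluster of 11 and 25 cells with 8 stem markers. The goblet-like class carried 7 Paneth cell markers beside 7 goblet markers, so Paneth cells were not set apart from it. A crypt cluster of 4 and 69 cycling cells came almost entirely from the Adipfl/flpVilli-CreT library, so it counts only toward the epithelium as a whole. Levels below are UMIs of the gene per 1000000 UMIs of a class (CPM). A gene was called higher or lower when it changed at least 1.5-fold with a counting interval that left out 1, among genes with at least 20 UMIs in the class over both libraries.

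Mt1 was the member that set the libraries apart. In the epithelium its level was 547 CPM (537 to 557) in the Adipfl/fl library and 2424 CPM (2410 to 2439) in the Adipfl/flpVilli-CreT library, 4.43-fold higher (4.35 to 4.52). With each cell weighted equally the Mt1 fold was 7.64, and with each class weighted equally 8.53. Mt2 was at 107 CPM (102 to 111) and 78.0 CPM (75.4 to 80.6), a fold of 0.73 (0.69 to 0.77). The other 5 members had epithelial folds between 0.89 (Slc30a10) and 1.04 (Slc39a4). Thus 1 of 7 members was called higher, where 2.29% of 15162 genes tested in the epithelium were called higher.

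**Figure D1:**
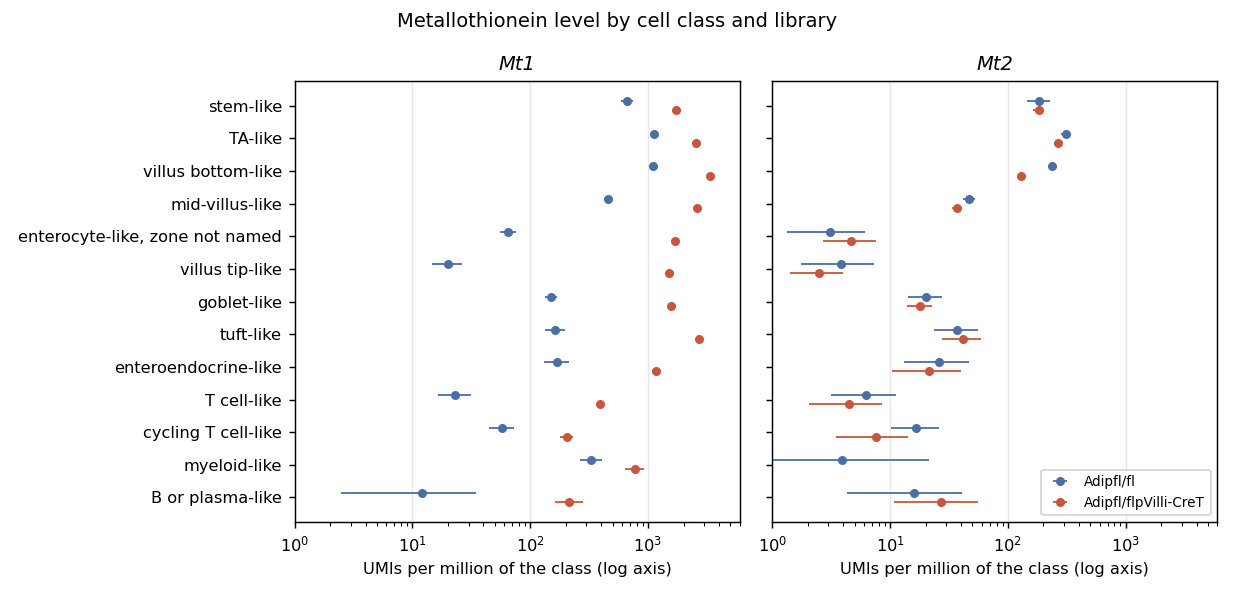
Level of Mt1 and Mt2 in 13 cell classes of the Adipfl/fl (blue) and Adipfl/flpVilli-CreT (red) libraries, as UMIs per 1000000 UMIs of the class on a log axis, with exact Poisson 95% intervals; Mt2 at 0 in myeloid-like cells of the Adipfl/flpVilli-CreT library is not drawn. Mt1 is further right in the Adipfl/flpVilli-CreT library in every class shown. Mt2 intervals of the libraries overlap in most classes but not in TA-like, villus bottom-like (239 and 130 CPM) and mid-villus-like cells.

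In Adipfl/fl cells Mt1 followed the crypt-villus axis. It was highest in dividing transit-amplifying (TA)-like cells with 1132 CPM (1084 to 1181) and in villus bottom-like enterocytes with 1112 CPM (1084 to 1141), which did not differ beyond their intervals. Stem-like cells had 661 CPM (590 to 740) and mid-villus-like enterocytes 456 CPM (440 to 473). Enteroendocrine-like cells, the hormone makers, had 169 CPM (132 to 213), tuft-like cells, the chemosensory cells, 163 CPM (133 to 199), and mucus-making goblet-like cells 151 CPM (134 to 170), with overlapping intervals. Enterocyte-like cells of no named zone had 65.0 CPM (55.5 to 75.6) and villus tip-like cells, the oldest enterocytes, 20.0 CPM (14.7 to 26.6). That last level was no higher than in T cell-like cells, with 22.9 CPM (16.3 to 31.1).

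The Adipfl/flpVilli-CreT library had a higher Mt1 level in all of these classes. The fold grew toward the villus tip, where the Adipfl/fl level was at that of T cell-like cells, but the difference in level did not. From villus bottom-like through mid-villus-like and zone not named to villus tip-like cells the difference was 2222, 2170, 1618 and 1488 CPM. Villus bottom-like cells had 3334 CPM, 3.0-fold more (2.92 to 3.08). TA-like cells had 2556 CPM (2.26-fold, 2.15 to 2.37) and stem-like cells 1724 CPM (2.61-fold, 2.32 to 2.94), the smallest folds among the epithelial classes. Mid-villus-like cells had 2627 CPM, a fold of 5.76 (5.54 to 5.98). Enterocyte-like cells of no named zone reached 1683 CPM (25.9-fold, 22.2 to 30.4). In villus tip-like cells Mt1 rested on 47 UMIs in the Adipfl/fl library and 9767 in the Adipfl/flpVilli-CreT library, a level of 1508 CPM and a fold of 75.4 (56.6 to 103). These folds of Mt1 depended on which barcodes were kept and on how their clusters were then named. At a mitochondrial limit of 10% they were 15.1 in villus tip-like cells, 3.17 in the zone not named and 4.6 in mid-villus-like cells. That villus tip-like class held only 29 and 64 cells. The zone not named was there made of clusters led by other genes, 85 and 184 cells led by Lypd8l and Areg, and 20 and 25 led by Cartpt. Its 3.17 is thus not a fold of the same class. Over all alternatives the folds ran from 15.1 to 100, from 3.17 to 28.5 and from 4.6 to 9.33, in the same order. Among secretory and sensory cells, goblet-like cells had 1573 CPM (10.4-fold, 9.25 to 11.8), tuft-like cells 2693 CPM (16.5-fold, 13.5 to 20.3) and enteroendocrine-like cells 1178 CPM (6.98-fold, 5.44 to 9.07). Over the alternatives the enteroendocrine-like fold of Mt1 ran from 3.74 to 10.6, and the tuft-like fold from 13.3 to 264, the latter without the cells of the highest doublet scores. Tuft-like cells of the Adipfl/fl library owed 45.5% of their Mt1 UMIs to 1 cell, and in no other epithelial class with at least 20 cells in each library did 1 cell hold more than 17.1%.

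How Mt1 stood among all genes differed between the classes. Of the genes tested in the dividing classes, 3.59% (stem-like) and 2.38% (TA-like) were called higher in the Adipfl/flpVilli-CreT library. Along the villus the share was 2.20% at the bottom, 2.00% in the middle, 3.16% in the zone not named and 3.48% at the tip, and 2.56% over all enterocyte-like cells together. It was 3.57% in tuft-like and 5.73% in enteroendocrine-like cells, and highest in goblet-like (7.74%) and T cell-like cells (7.76%). By fold, Mt1 was in place 1 of 8328 genes in villus tip-like cells and place 1 of 8580 in enterocyte-like cells of no named zone, but place 105 of 11373 in villus bottom-like, 134 of 10132 in TA-like and 267 of 8987 in stem-like cells. Genes of few UMIs can lead such a ranking. By the lower limit of the interval, Mt1 was in places 1, 1, 19, 21 and 40 of these classes in the same order. Of 4972 genes with at least 20 UMIs in each of these 10 classes, only 3 were called higher in every one, Mt1, Gm10076 and mt-Nd3, and 1 was called lower in every one, Mir6236. The 3 genes named with Mt1 were chosen after their values were seen.

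Most epithelial cells of the Adipfl/flpVilli-CreT library carried Mt1. After cells were thinned to 2000 UMIs each, 24.1% of 2303 epithelial cells of the Adipfl/fl library and 87.6% of 4589 of the Adipfl/flpVilli-CreT library held a Mt1 UMI, against 38.0% and 93.8% of cells before thinning. In villus tip-like cells the thinned shares were 3.12% (1.80 to 5.03) of 512 cells and 77.3% (75.1 to 79.4) of 1493 cells. Goblet-like cells had 12.1% (8.05 to 17.2) and 87.4% (83.6 to 90.5). Tuft-like cells had 8.57% (3.21 to 17.7) of 70 and 98.4% (91.2 to 100.0) of 61. For comparison, T cell-like cells, which are not known to use the villin promoter, had 4.09% (2.26 to 6.77) of 342 and 23.0% (19 to 27.5) of 395 cells, at median depths of 4585 and 4047 UMIs against 3918 and 3641 in villus tip-like cells. The Mt1 share of Adipfl/fl villus tip-like cells thus lay within the background and is not read as expression, so the fold there is a fold over background. The rise was spread over cells: the richest cell held 0.778% of Mt1 UMIs in villus tip-like cells of the Adipfl/flpVilli-CreT library, and the median cell there held 4 Mt1 UMIs.

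**Figure D2:**
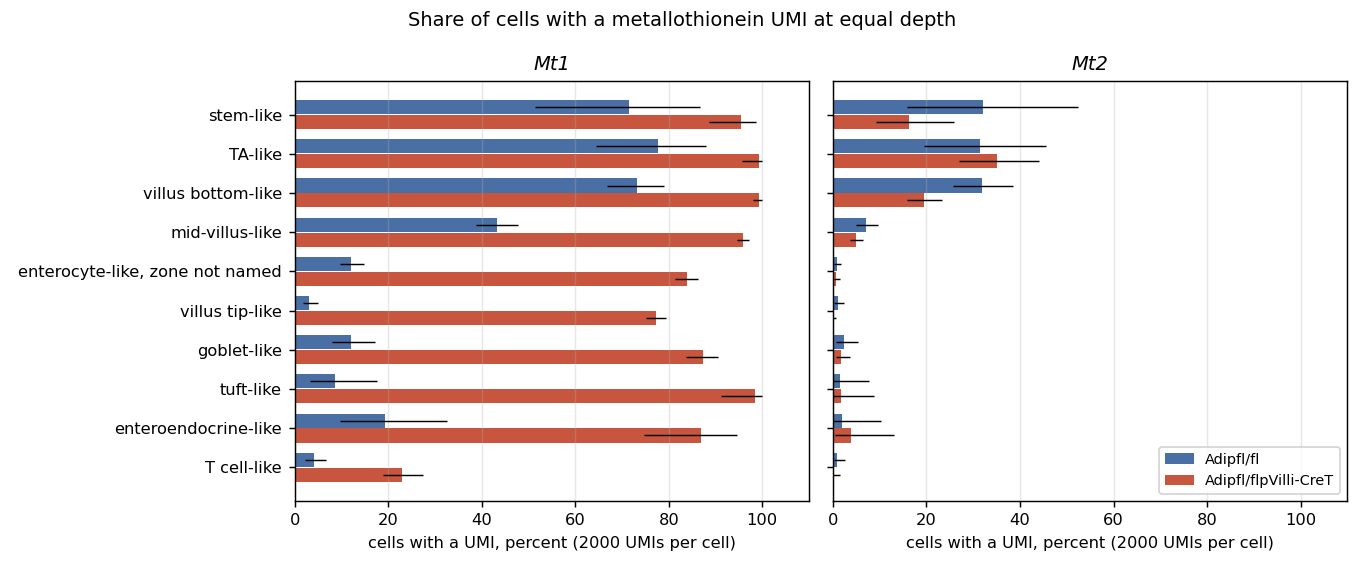
Percent of cells with at least 1 UMI of Mt1 or Mt2 after each cell was thinned to 2000 UMIs, by cell class, with exact Clopper-Pearson 95% intervals (Adipfl/fl blue, Adipfl/flpVilli-CreT red). Mt1 bars of the Adipfl/flpVilli-CreT library lie above 75% in all 9 epithelial classes and at 23.0% in T cell-like cells, while Mt2 bars stay below 40% throughout.

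The T cell-like cells also gave a measure of stray RNA, that is RNA from other cells, whether free or from a second cell in the barcode. There Mt1 was at 22.9 and 391 CPM (17.1-fold, 12.4 to 24.1, and 7.62 to 18.4 over the alternatives). Set against the level in all enterocyte-like cells of the same library, the T cell-like level of Mt1 was 4.17% (2.98 to 5.69) in the Adipfl/fl library and 15.3% (14.2 to 16.4) in the Adipfl/flpVilli-CreT library. Transcripts known from enterocytes, such as those of lipid and sugar uptake, stood at a median of 7.0% (3.02 to 11 over 21 genes) and 15.9% (5.40 to 26.5 over 25 genes). Of the 28 genes listed, those with fewer than 10 UMIs in T cell-like cells were left out of these ranges, among them Slc2a2 at 1.82% in the Adipfl/fl library. Mt1 in T cell-like cells was therefore within the range that enterocyte transcripts reach in these barcodes and is read as background in both libraries. In the Adipfl/flpVilli-CreT library it was not spread evenly. There 1 of 443 T cell-like cells held 99 Mt1 UMIs (12.6%), the richest 10% of cells held 82.0%, and the median cell held 0. Whether these UMIs came from free RNA or from barcodes of more than 1 cell was not tested, so 391 CPM and 15.3% do not measure free RNA alone. Mtf1, by contrast, was at about the same level in T cell-like as in some epithelial cells, 28.6 and 29.9 CPM. Myeloid-like cells had more Mt1 than T cell-like cells, 329 CPM (263 to 407) and 776 CPM (641 to 931), a fold of 2.36 (1.77 to 3.16) over 62 and 32 cells.

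Mt2 did not go with Mt1. Its level was highest in TA-like cells, 309 CPM (285 to 336) in the Adipfl/fl library and 264 CPM (248 to 281) in the Adipfl/flpVilli-CreT library, a fold of 0.85 (0.77 to 0.95). In villus bottom-like cells it fell from 239 CPM (226 to 252) to 130 CPM (124 to 137), a fold of 0.55 (0.51 to 0.59), the only named epithelial class where Mt2 was called lower, with 1.93% of tested genes. Over all enterocyte-like cells it was 96.4 and 58.6 CPM, also called lower (0.61-fold, 0.57 to 0.65), where 2.28% of genes were. Stem-like cells had 183 CPM in both libraries, a fold of 1.00 (0.78 to 1.28). Mid-villus-like cells had 46.5 and 37.0 CPM (0.80-fold, 0.69 to 0.92), and goblet-like, tuft-like and enteroendocrine-like cells had folds between 0.83 and 1.11 with intervals that held 1. In villus tip-like cells and in enterocyte-like cells of no named zone Mt2 was at 2.47 to 4.70 CPM, close to its 6.29 and 4.49 CPM in T cell-like cells, and is read as background there. The thinned share of villus bottom-like cells with a Mt2 UMI was 31.8% (25.7 to 38.4) and 19.4% (15.8 to 23.4).

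Counted within the same cells, the ratio of the metallothioneins differed between the libraries. In the Adipfl/fl library there were 5.13 Mt1 UMIs for each Mt2 UMI in the epithelium (4.91 to 5.37), and in the Adipfl/flpVilli-CreT library 31.1 (30.1 to 32.2). Villus bottom-like cells went from 4.66 (4.39 to 4.95) to 25.6 (24.3 to 27.0). TA-like cells had 3.66 (3.33 to 4.02) and 9.67 (9.06 to 10.3). Villus tip-like cells had 5.22 (2.53 to 12.1), from 9 Mt2 UMIs, and 610 (376 to 1068), from 16, but Mt2 is at background there in both libraries and so is Mt1 in the Adipfl/fl library, so nothing is read from these. The intervals of the libraries did not overlap in any of the classes drawn. Across the 2437 epithelial cells of the Adipfl/fl library the logged levels of Mt1 and Mt2 went together with Pearson r = 0.67, and across the 4782 cells of the Adipfl/flpVilli-CreT library with r = 0.26. In villus bottom-like cells r was 0.76 (221 cells) and 0.28 (444 cells). Cells are not replicates, depth is shared by both genes of a cell, and these r values are a description.

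**Figure D3:**
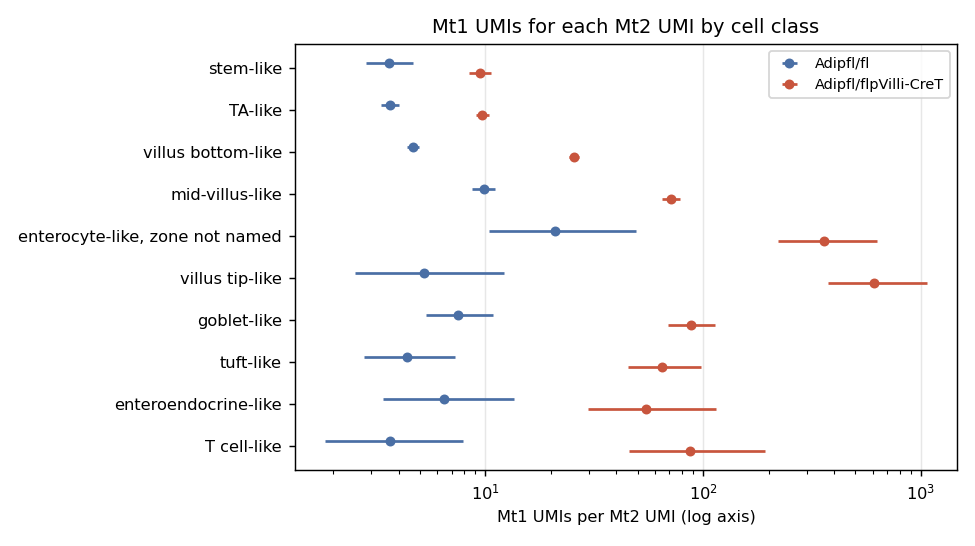
Mt1 UMIs for each Mt2 UMI by cell class, on a log axis, with exact conditional 95% intervals (Adipfl/fl blue, Adipfl/flpVilli-CreT red). Ratios of the Adipfl/fl library lie between 3.61 and 20.9 and those of the Adipfl/flpVilli-CreT library between 9.44 and 610, with no overlap of intervals within a class; Mt2 is at background in the zone not named, the villus tip and T cell-like cells.

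Genes around Mt1 did not share its change. Of 19 other genes tested within 500 kb of Mt1, Mt2 and Mt3 included, the median epithelial fold was 0.96. Herpud1, a stress gene of the endoplasmic reticulum, was called higher at 1.53-fold (1.44 to 1.63), and Gnao1, a G protein subunit, lower at 0.46-fold (0.34 to 0.61). These were the extremes of the 19, named after their values were seen. The next gene after Mt1, Nup93, a nuclear pore component 34237 bases away, was at 0.96-fold (0.80 to 1.17).

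The transcript of villin itself, Vil1, whose promoter drives Cre here, was set beside Mt1 after the values were seen. In the Adipfl/flpVilli-CreT library Vil1 was at 256 CPM in stem-like cells and 315 CPM in TA-like cells. From villus bottom-like through mid-villus-like and zone not named to villus tip-like cells it was at 1111, 1974, 2363 and 1609 CPM. The difference in Mt1 level, Adipfl/flpVilli-CreT minus Adipfl/fl, was 1063, 1424, 2222, 2170, 1618 and 1488 CPM over these classes in the same order. Tuft-like cells had the largest difference, 2530 CPM, with 1009 CPM of Vil1. In the 4 immune classes the difference was 148 to 447 CPM and Vil1 97.1 to 331 CPM. Over 13 classes with at least 20 cells in each library, Pearson r was 0.68 and Spearman rho 0.83, points that share their libraries and the stray enterocyte RNA. The 13 include the 4 immune classes, where low values of both genes can come from that same RNA. These values therefore do not measure how Mt1 and Vil1 go together within the epithelium. Whether Cre expression bears on the Mt1 count was not tested.

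**Figure D4:**
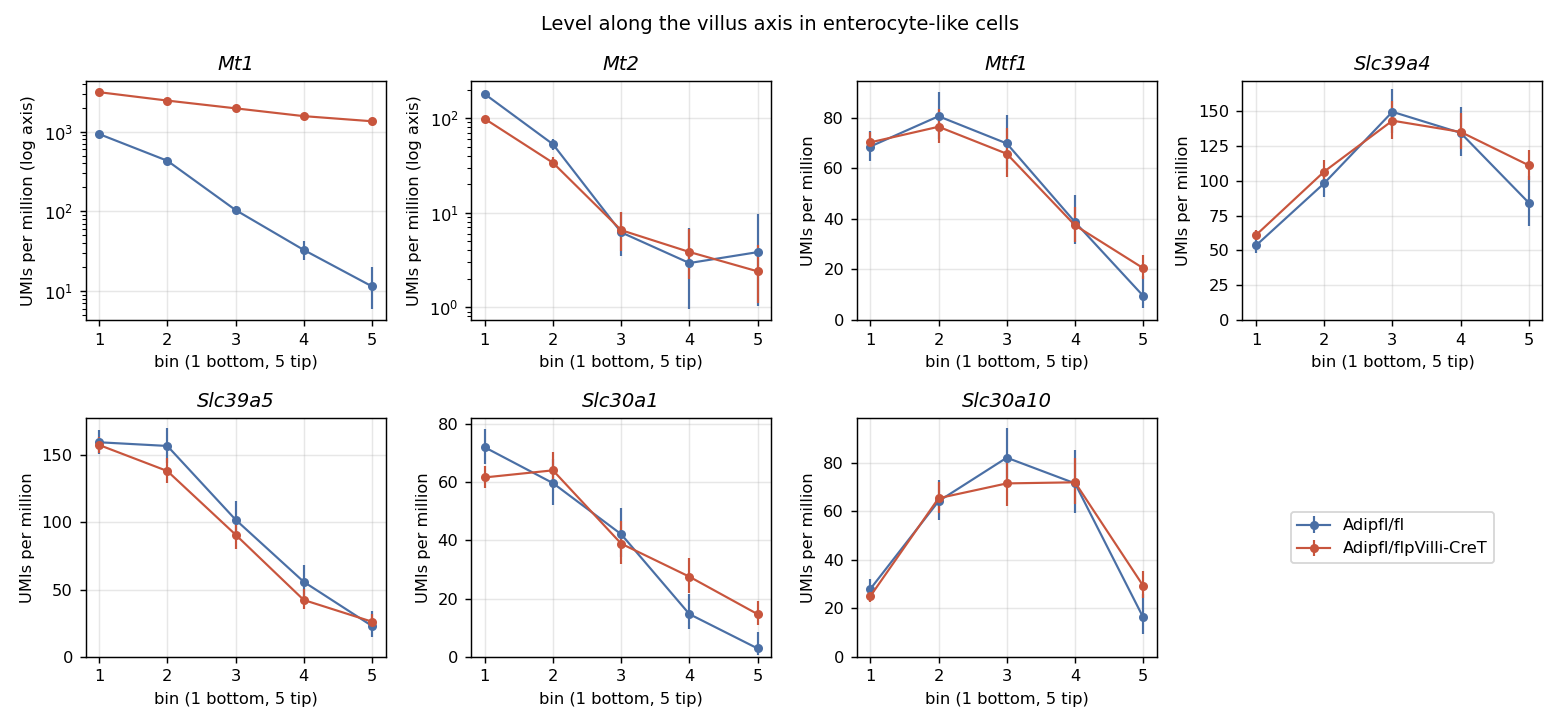
Level of the 7 genes, as CPM, in 5 bins of enterocyte-like cells ranked from villus bottom to tip by landmark genes, with exact Poisson 95% intervals (Adipfl/fl blue, Adipfl/flpVilli-CreT red; log axis for Mt1 and Mt2, other axes from 0). Mt1 falls from 934 to 11.5 CPM in the Adipfl/fl library and from 3129 to 1351 CPM in the Adipfl/flpVilli-CreT library, while Mt2 is lower in the Adipfl/flpVilli-CreT library in the first bin (98.4 against 180 CPM) and Slc30a1 higher there in the last (14.7 against 2.87 CPM).

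The same change was seen when enterocyte-like cells were ranked along the villus by landmark genes of its bottom and tip, in 5 bins of both libraries together. The landmarks were among the markers that named the classes and the cells were the same, so the ranking is not a separate check. In the Adipfl/fl library Mt1 was at 934, 432, 104, 32.9 and 11.5 CPM from the first bin to the last, an 81.3-fold fall (46.5 to 158) to a last value, on 12 UMIs, that is below the T cell-like level and is read as background. In the Adipfl/flpVilli-CreT library it was at 3129, 2455, 1963, 1567 and 1351 CPM, a 2.32-fold fall (2.25 to 2.38). The fold between libraries was 3.35 in the first bin and 118 (67.3 to 228) in the last, where the Adipfl/fl value rests on 261 cells. Mt2 went from 180 CPM in the first bin to 3.83 CPM in the last, and from 98.4 to 2.40 CPM, the last values resting on 4 and 9 UMIs at background. In the first bin Mt2 was lower in the Adipfl/flpVilli-CreT library, 0.55-fold (0.51 to 0.59), and in the second 0.64-fold (0.52 to 0.78).

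Mtf1, the sensor that acts on both metallothionein genes, was at 56.9 CPM (53.8 to 60.1) and 55.0 CPM (52.8 to 57.2) in the epithelium. It was highest in mid-villus-like cells, 82.6 and 81.6 CPM, a fold of 0.99 (0.89 to 1.10), and lowest among enterocytes in villus tip-like cells, 22.1 and 26.6 CPM (1.2-fold, 0.88 to 1.67). Goblet-like cells had 23.8 and 32.9 CPM. Mtf1 was called in none of the classes. In the last bin of the ranked axis, however, it was at 9.57 and 20.5 CPM, 2.14-fold higher (1.11 to 4.65).

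The importers differed in their place on the villus. For Slc39a4, villus bottom-like cells had 42.7 and 54.4 CPM (1.27-fold, 1.09 to 1.49), mid-villus-like cells 97.9 and 88.7 CPM, and villus tip-like cells 123 (109 to 138) and 121 CPM (112 to 129), a fold of 0.98 (0.86 to 1.13). The level in villus bottom-like cells was 0.35 times that in villus tip-like cells of the Adipfl/fl library (0.29 to 0.42) and 0.45 times in the Adipfl/flpVilli-CreT library (0.41 to 0.50). The highest level was in enterocyte-like cells of no named zone, 127 (114 to 142) and 149 CPM (136 to 162), and in the Adipfl/fl library this did not differ from the villus tip beyond the intervals. Along the ranked axis Slc39a4 was highest in the third bin and lower again in the last, with 53.5, 98.2, 149, 134 and 84.2 CPM in the Adipfl/fl library and 61.0, 107, 143, 135 and 111 CPM in the Adipfl/flpVilli-CreT library. TA-like cells had 24.3 and 33.4 CPM, and goblet-like cells 56.5 and 69.6 CPM.

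Slc39a5 was the more abundant importer at the villus bottom, with 166 (156 to 178) and 157 CPM (150 to 165) there, 152 and 147 CPM in mid-villus-like cells and 34.9 and 35.2 CPM in villus tip-like cells. The villus bottom exceeded the tip 4.77-fold (3.80 to 6.05) and 4.47-fold (3.89 to 5.16). Comparison of these genes rests on counts of molecules at the 3′ end. Between libraries its folds in villus bottom-like, mid-villus-like and villus tip-like cells were 0.95, 0.97 and 1.01, with intervals that held 1. Slc39a5 was called lower only in stem-like cells, 73.3 (50.7 to 102) against 45.4 CPM (36 to 56.4), 0.62-fold (0.41 to 0.95) on 34 and 81 UMIs, where 2.59% of genes were called lower and 28 cells make up the Adipfl/fl side. The call was lost at a mitochondrial limit of 10% (0.69) and with the share over protein-coding mt- genes (0.86).

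**Figure D5:**
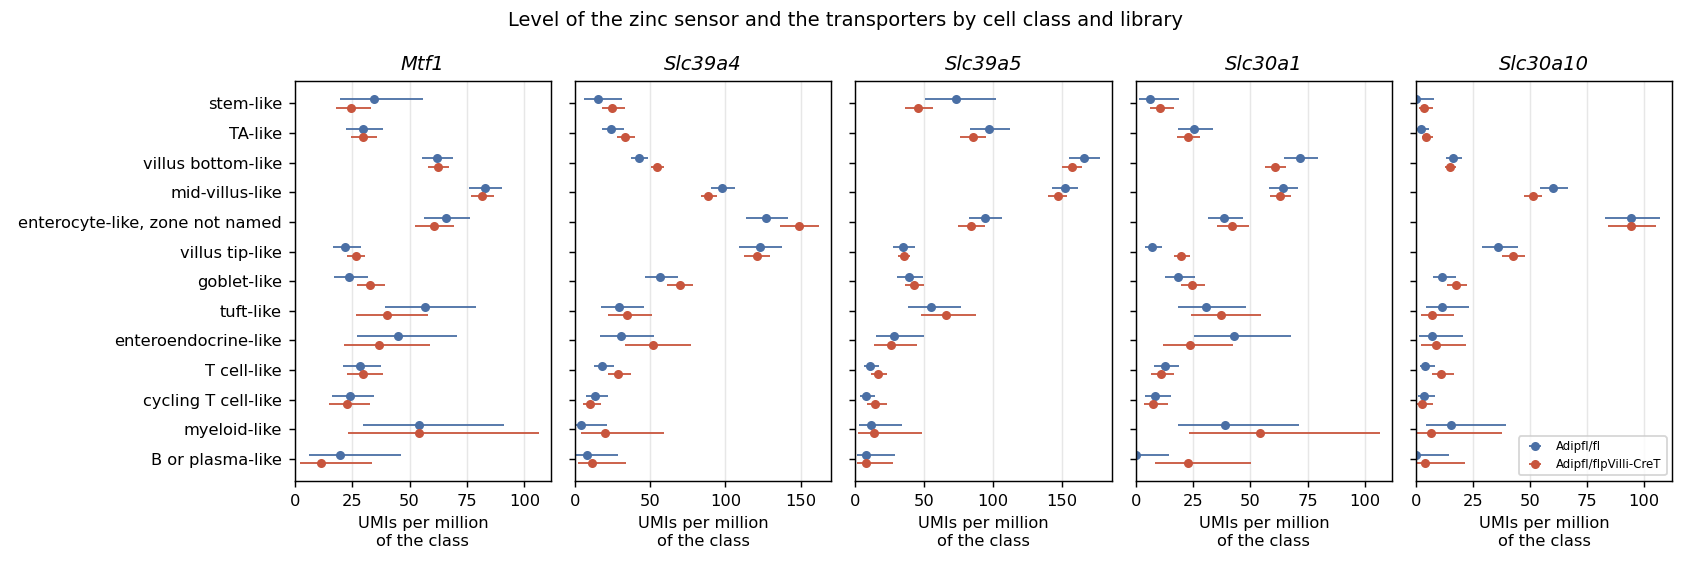
Level of Mtf1, Slc39a4, Slc39a5, Slc30a1 and Slc30a10 in 13 cell classes of the Adipfl/fl (blue) and Adipfl/flpVilli-CreT (red) libraries, as UMIs per 1000000 UMIs of the class, axes from 0, with exact Poisson 95% intervals. Slc39a4 is highest in enterocyte-like cells of no named zone and at the villus tip (121 to 149 CPM). Slc39a5 is highest in villus bottom-like and mid-villus-like cells (147 to 166 CPM). Intervals of the libraries overlap in most classes, but not for Slc30a1 at the villus tip or Slc39a4 in villus bottom-like cells.

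The exporter Slc30a1 was the only transporter of the 7 members called in an enterocyte class. With Mt1, 2 of 7 members were called higher in villus tip-like cells, where 3.48% of 8328 tested genes were. Slc30a1 had 7.24 CPM (4.22 to 11.6) there in the Adipfl/fl library and 19.8 CPM (16.5 to 23.5) in the Adipfl/flpVilli-CreT library. These rest on 17 and 128 UMIs, a 2.73-fold higher level (1.64 to 4.83). At a mitochondrial limit of 10% the fold was 1.23 and the call was lost. That class held only 29 and 64 cells, where the main one held 528 and 1575, so the lost call says little. Lower on the villus it did not rise: villus bottom-like cells had 71.7 and 60.6 CPM (0.85-fold, 0.75 to 0.96) and mid-villus-like cells 64.1 and 62.9 CPM (0.98-fold, 0.87 to 1.11). Along the ranked axis its fold was 0.92 in the third bin, 1.88 (1.19 to 3.06) in the fourth and 5.11 (1.66 to 25.5) in the last, where the Adipfl/fl library gave 3 UMIs. The Adipfl/fl ratio of the first bin to the last, 25.1, was 8.46 to 11.5 under the alternatives of the bins. In the Adipfl/flpVilli-CreT library that ratio was 3.44 to 4.14 under them. At equal depth 1.37% (0.55 to 2.80) and 4.02% (3.08 to 5.14) of villus tip-like cells held a Slc30a1 UMI, set against 2.63% (1.21 to 4.94) and 2.03% (0.88 to 3.95) of T cell-like cells. T cell-like cells held 23.0% (14.4 to 35.1) of the enterocyte level of Slc30a1 in the Adipfl/fl library, above the range of the enterocyte transcripts. In the Adipfl/flpVilli-CreT library that share was 21.2% (13.2 to 32.2), within the range there. T cell-like cells are thus not read as a measure of stray enterocyte RNA for this gene.

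Slc30a10 was an enterocyte transcript of the middle villus. It had 94.5 (83.0 to 107) and 94.3 CPM (84.3 to 105) in enterocyte-like cells of no named zone, 60.3 and 51.2 CPM in mid-villus-like cells, 36.2 and 42.6 CPM in villus tip-like cells and 16.5 and 15.0 CPM in villus bottom-like cells. Stem-like cells of the Adipfl/fl library held 0 UMIs, with an upper 95% limit of 7.95 CPM, and those of the Adipfl/flpVilli-CreT library 6 UMIs. No epithelial class passed the threshold. The last bin of the ranked axis had 16.3 and 29.3 CPM (1.80-fold, 1.08 to 3.20), on 17 and 110 UMIs. The Adipfl/fl ratio of the first bin to the last, 1.72, was 0.88 to 1.03 under the alternatives of the bins. In T cell-like cells Slc30a10 (4.0 and 11 CPM, 2.74-fold, 1.13 to 7.60) and Slc39a4 (18.3 and 28.9 CPM, 1.58-fold, 1.01 to 2.52) were called higher on 7 to 58 UMIs, together with Mt1, so 3 of 7 members were called there, where 7.76% of all tested genes were. At a mitochondrial limit of 10% the T cell-like fold of Slc39a4 was 0.98, and with equal weight of cells that of Slc30a10 was 1.18. Of the enterocyte transcripts listed as proximal, such as Fabp1, which carries fatty acids, 8 of 9 tested were called higher in the same T cell-like cells.

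The remaining zinc genes, 22 other metallothioneins and members of the Slc30 and Slc39 families, moved little. Of 18 tested in the epithelium, 0 were called, and their median log2 fold was 0.02 beside -0.02 over all genes tested. The highest level in any named class was that of Slc39a9, a transporter of the secretory pathway, with 146 and 179 CPM in villus tip-like cells (1.22-fold, 1.08 to 1.38). Slc30a4 (113 and 110 CPM) and Slc30a5 (113 and 104 CPM), which load zinc into vesicles and the secretory pathway, were highest in mid-villus-like cells, as were Slc39a14, an importer of zinc, iron and manganese (84.4 and 87.1 CPM), and Slc30a2 (73.3 and 78.6 CPM). Slc30a9 reached 64.2 and 71.2 CPM in enteroendocrine-like cells. Outside the epithelium Slc39a1 (50.3 and 47.2 CPM) and Slc39a10 (19.4 and 60.7 CPM, on 5 and 9 UMIs) were highest in myeloid-like and Slc39a6 (46.7 and 52.7 CPM) in cycling T cell-like cells. At the villus tip, where Slc30a1 was higher, 2 of 11 tested zinc genes were called higher, Slc30a7 at 1.64-fold (1.04 to 2.70) and Slc39a11 at 1.93-fold (1.03 to 3.94), where 3.48% of all tested genes were. Goblet-like cells had 4 of 13 called higher, Slc30a2, Slc30a5, Slc30a6 and Slc39a14, in the class where 7.74% of all tested genes were.

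Lists of other signals that act on metallothionein genes were read in the same cells. Of 5 tested genes of the glucocorticoid response, Fkbp5, a chaperone of the receptor, rose from 6.86 to 14.3 CPM in the epithelium (2.09-fold, 1.74 to 2.51) and the kinase gene Sgk1 from 137 to 228 CPM (1.67-fold, 1.60 to 1.74), with a list median log2 fold of 0.51 beside -0.02 over all genes. Tsc22d3 at 1.32-fold, Per1 at 1.43-fold and Klf9 at 0.99-fold were not called in the epithelium, where 2.29% of tested genes were called higher. In villus bottom-like cells 4 of 5 were called higher, in villus tip-like cells 2 of 5 and in stem-like cells 0 of 5. The shares of all tested genes called higher in these 3 classes were 2.20%, 3.48% and 3.59%. The oxidative stress list had 0 of 7 called (median -0.05) and the list of dissociation and immediate early genes 0 of 13 (median 0.06). Of 10 copper and iron genes, Slc40a1, the iron exporter ferroportin, was called lower, 3.98 and 2.49 CPM (0.63-fold, 0.47 to 0.84). Regional enterocyte genes moved in both directions within each list, with a median log2 fold of -0.17 for the proximal and 0.11 for the distal list. Each list had 1 called of 10. These were Apoc2, proximal, at 0.46-fold (0.36 to 0.59), from 6.22 to 2.85 CPM, and Tmigd1, distal, at 1.63-fold (1.54 to 1.71). Other members went the other way, such as Adh6a of the proximal list at 1.10-fold and Plb1 of the distal list at 0.80-fold. The part of these signals, and of a difference in the stretch of intestine sampled, in the Mt1 level was not tested.

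By pattern over 11 classes in both libraries (22 points, log2 of CPM plus 10, 8982 candidate genes), the genes most like Mt1 were Tmed7 (Pearson r = 0.78), mt-Nd3 (0.75), Pex2 (0.73), Nipsnap3b (0.72) and Barx2 (0.71), and r with Mt2 was 0.47. Slc39a4 had closer matches, led by Tor1aip2, Selenoi and Slc3a1 (0.95, 0.95 and 0.94), followed by Actn4 and Sec16b (0.94 each). Slc39a5 was most like Nags (0.97), Gna11, H2-T3, Cds1 and Zfyve21 (0.96 each). Among the members, Slc39a4 went with Slc30a10 (0.82) and less with Slc39a5 (0.58). Points of 1 library share depth and stray RNA, and these values are a description.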

How the data were processed

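The authors converted reads with bcl2fastq 5.0.1 and used Cell Ranger (version 7.1.0 per the file headers) to count UMIs of each gene in each barcode. They deposited these raw counts without normalization. The labels name the build mm10, yet 3276 of 55357 identifiers are not in GENCODE M21, so the annotation counted against is not given in the sources used here. The filter of the methods (over 500 detected genes, a mitochondrial share below 25%) was applied to the barcodes, and left fewer cells than the study states.

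Cells were clustered in Seurat 5.3.0 (R 4.3.3; 2000 variable genes without zinc genes, 20 components, resolution 0.8, crypt clusters again at 0.4). A class needed at least 4 markers that were 2-fold higher with 10 UMIs, a rule set after clusters were seen. Scrublet (scanpy 1.11.5) called 3 and 2 doublets, too few to have worked, so doublets were kept. UMIs were summed per class and library and scaled to 1000000, with exact Poisson, conditional binomial and Clopper-Pearson 95% intervals (scipy 1.17.1) and a floor of 3 UMIs for counts of 0. The fold calculation was run on simulated Poisson counts of class totals. These follow the model of its intervals and leave out the clumping of UMIs in single cells. That run thus checks the arithmetic and not the intervals in these data. Members and gene lists were chosen with earlier results of these data known. The text names the members, other zinc genes of at least 50 CPM in some named class, the 5 genes most like Mt1, Slc39a4 and Slc39a5 in pattern (at least 500 UMIs, classes of at least 30 cells), and listed genes called in the epithelium. Alternatives changed the filters, clustering, doublets, denominator, weights, depth and bins.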

Additional observations from a re-analysis of the deposited data

Results flagged for a closer look

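Mt1 was also high in the Adipfl/flpVilli-CreT barcodes that the mitochondrial limit removed from the comparisons above. Barcodes with more than 500 genes but at least 25% mitochondrial UMIs numbered 4670 in the Adipfl/fl and 4263 in the Adipfl/flpVilli-CreT library. Their Mt1 level was 66.9 CPM (910 UMIs) and 1429 CPM (16941 UMIs), 21.4-fold higher in the Adipfl/flpVilli-CreT library (20.0 to 22.9), which is why they are listed here. Mt2 in the same barcodes was at 8.89 and 7.76 CPM (0.87-fold, 0.66 to 1.15), and Slc39a4 at 81.9 and 93.3 CPM (1.14-fold, 1.05 to 1.24).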

How the results depend on the processing

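The epithelial fold of Mt1 (4.43) stayed above 1 under all 15 alternatives and moved beyond its counting interval to 3.49 at a mitochondrial limit of 10%, 4.99 with the share over protein-coding mt- genes, 4.27 without the 8% highest Scrublet scores, 7.64 with equal weight of cells, 7.49 after thinning and 8.53 with equal weight of classes. For Mt2 (0.73) the values were 0.78 with protein-coding mt- genes, 0.80 with equal cells, 0.85 after thinning and 0.87 with equal classes, and for Mtf1 0.86 after thinning. Slc39a4 had 1.11 at the 10% limit, 1.11 with equal cells, 1.13 after thinning and 1.25 with equal classes. Slc39a5 had 1.01 at 10% and 0.89 with equal cells, Slc30a1 0.88 at 10%, 1.06 with equal cells and 1.14 with equal classes, and Slc30a10 1.02 with equal classes. Some shifts of single classes stand beside their values above, but other large ones do not. Over the alternatives the fold of Slc39a5 in villus tip-like cells ran from 0.85 to 2.46. That of Mt2 ran from 1.05 to 3.49 in tuft-like and from 0.24 to 1.30 in goblet-like cells. In goblet-like cells Mtf1 ran from 0.78 to 2.33 and Slc30a10 from 0.91 to 5.54. Of 966 class folds under alternatives, 858 stayed within their interval and 1 reversed, Slc39a4 in T cell-like cells (0.98 at the 10% limit). With 3 bins, the ratio of the first to the last was 42.5 (Adipfl/fl) and 2.12 (Adipfl/flpVilli-CreT) for Mt1, and 0.88 for Slc30a10 in Adipfl/fl, which had been 1.72. A fold of at least 2 left 179 genes called higher (347 at 1.5) and 277 lower (638) in the epithelium, and with no minimum of UMIs there were 389 and 811. The cause of these shifts was not tested. Equal weights of classes and leaving out the 1-library cluster were added after the data were seen. No paired analysis was possible because each genotype is 1 library. Depth limits the classes of few cells and Mt2 at the villus tip, where 9 and 16 UMIs cannot show a difference.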

Other observations

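The unnamed cluster of 69 and 157 cells, led by Dnm1 and Lypd8l, was left out of the classes above. In it Mt1 was at 541 and 2612 CPM (4.83-fold, 4.16 to 5.63) and Mt2 at 119 and 39.4 CPM (0.33-fold, 0.19 to 0.55). The crypt cluster that came mostly from the Adipfl/flpVilli-CreT library (69 of its cells) had 2096 CPM of Mt1 and 164 CPM of Mt2. Mt3, the brain metallothionein, was at 0.503 and 0.269 CPM in the epithelium (11 and 12 UMIs), of which enteroendocrine-like cells held 9 and 6 UMIs (21.4 and 12.9 CPM).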
